A study of Mus musculus with 36 samples.

Results

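Figla, Nobox, Lhx8, Sohlh1, Sohlh2, Taf4b, Ybx2, Gdf9, Bmp15 and Zp3 are 10 genes of the early oocyte: regulators of transcription, an RNA-binding protein, a pair of secreted growth factors and a coat protein of the egg. Their levels were followed in germ cells sorted from fetal mouse gonads. The genes were taken by name, as the members whose symbol was the only one given for a probe set of the array, and each had 1 such probe set. They are 10 of the 19938 genes named on the array, and all 10 were among the 17571 genes tested.

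The series holds 36 Mouse Gene 1.0 ST arrays (Affymetrix) in 12 groups of 3, of XX or XY origin and of stage TS13, TS24 or TS34. Per the labels, TS13 precedes sexual differentiation, TS24 falls within it and TS34 follows it. Germ cells were sorted by an Oct4 reporter in fetuses described as progeny of C57BL/6NJ on a mixed background, at every stage and in both sexes. Supporting cells, the somatic lineage of Sertoli and pregranulosa cells, carried Tg(Sry-EGFP)92Ei in progeny of CD-1 for all XX groups and for XY at TS13. XY supporting cells at TS24 and TS34 carried Tg(Sox9-cre/ERT2)1Msan/J in progeny of C57BL/6, so that cell type and mouse line cannot be told apart in any comparison of germ with supporting cells. Gonads of each sex were pooled before sorting, and the labels do not say whether replicates came from separate pools. P-values therefore set a difference of group means against the spread of replicate arrays within groups, which may be technical spread only.

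The oocyte enclosed in a primordial follicle derives from an XX germ cell that entered meiosis in the fetal ovary. SOHLH1 and SOHLH2 are basic helix-loop-helix (bHLH) proteins of germ cells that act upstream of the LIM homeobox protein LHX8, the homeobox protein NOBOX and the bHLH protein FIGLA. FIGLA is known for the activation of the zona pellucida genes, Zp3 among them, and NOBOX for that of Gdf9. TAF4B is a germ cell paralog of TAF4, a subunit of the general transcription factor TFIID. YBX2, also called MSY2, is a Y-box protein that binds and stores mRNA in oocytes and spermatids. GDF9 and BMP15 are ligands of the TGF-beta family that oocytes secrete towards their granulosa cells.

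FIGLA and the SOHLH proteins are bHLH factors, whose class binds the E-box CANNTG, and NOBOX is known to bind TAATTG (on the other strand this reads CAATTA) or its variant form TAATTA. Promoter windows were taken from RefSeq (build GRCm38.p6) and matched for 8 of the 10 members, all but Taf4b and Gdf9. Each window was searched on both strands over the 250 bases before an annotated transcript start. CANNTG is read alike on both strands, and CACGTG is 1 of its forms. Across 32851 windows of that length, 66.2% held at least 1 CANNTG and 12.2% held 3 or more. CACGTG was found in 6.0% of them and 1 of the homeobox motifs in 11.3%.

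The windows of Sohlh1 and Sohlh2 are shown because, of these partner genes, Sohlh2 stood apart in germ cells and Sohlh1 did not. Capitals mark CANNTG. The Sohlh1 window (chr2:25847249-25847498, minus strand) held 5 E-boxes. Those at 231, 211 and 192 bases before the start were CACGTG, and those at 134 and 70 bases were CAGGTG. The Sohlh2 window (chr3:55181794-55182043, plus strand) held 1, a CAGATG at 241 bases before the start.
Sohlh1: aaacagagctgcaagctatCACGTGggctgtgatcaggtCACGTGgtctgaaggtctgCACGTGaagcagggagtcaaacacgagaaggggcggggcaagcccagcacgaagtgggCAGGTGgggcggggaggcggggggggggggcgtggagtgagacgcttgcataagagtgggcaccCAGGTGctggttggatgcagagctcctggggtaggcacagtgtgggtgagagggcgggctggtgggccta
Sohlh2: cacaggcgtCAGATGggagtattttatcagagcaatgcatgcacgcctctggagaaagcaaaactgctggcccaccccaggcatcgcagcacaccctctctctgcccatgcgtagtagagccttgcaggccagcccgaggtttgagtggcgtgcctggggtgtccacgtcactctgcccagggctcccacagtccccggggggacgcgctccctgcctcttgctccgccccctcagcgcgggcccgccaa

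The first Ybx2 window is shown because Ybx2 was the member that moved in opposite directions in the sexes. It is printed up to the outermost annotated start of the gene (chr11:69935649-69935804, plus strand, 156 bases). It held 1 E-box, CAGGTG, at 237 bases before the start that the full window leads up to. With 35 CG dinucleotides over its 250 bases it was far richer in CG than the median window, which held 6. A second Ybx2 window, before a later annotated start (chr11:69936078-69936327, plus strand), held no E-box and 29 CG. The other members ranged from 2 in Bmp15 to 14 in Figla and in Sohlh2.
Ybx2: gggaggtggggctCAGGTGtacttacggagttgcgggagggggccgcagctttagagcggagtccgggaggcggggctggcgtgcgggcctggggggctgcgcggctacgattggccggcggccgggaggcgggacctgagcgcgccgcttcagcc

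Zp3 and Bmp15 are shown as a gene of the egg coat and an oocyte ligand that were below the array's median on all 35 arrays used. The Zp3 window (chr5:135979855-135980104, plus strand) held 3 E-boxes, CACGTG at 181, CAGATG at 134 and CAGGTG at 55 bases before the start. In the Bmp15 window (chrX:6320725-6320974, minus strand) capitals mark the homeobox motif instead, a TAATTA at 225 bases before the start. It was the single homeobox motif found in the members' windows, and the Bmp15 window also held a CAAATG. The Figla and Nobox windows held 2 E-boxes each, the Lhx8 window none. A match describes the letters of the window and does not show that a factor binds there.
Zp3: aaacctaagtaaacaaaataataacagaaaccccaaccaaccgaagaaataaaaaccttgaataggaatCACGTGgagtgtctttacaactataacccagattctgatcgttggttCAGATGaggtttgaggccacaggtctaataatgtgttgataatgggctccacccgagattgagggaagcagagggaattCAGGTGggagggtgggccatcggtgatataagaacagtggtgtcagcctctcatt
Bmp15: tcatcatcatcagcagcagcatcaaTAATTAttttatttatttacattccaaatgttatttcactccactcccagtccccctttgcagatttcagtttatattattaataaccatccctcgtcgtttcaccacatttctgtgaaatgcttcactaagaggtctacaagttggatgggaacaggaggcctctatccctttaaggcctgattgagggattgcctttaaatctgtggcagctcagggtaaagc

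Values are deposited log2 expression values per probe set. A level of 1 gene was not set against that of another single gene, but was set against its array's median and 25th percentile. Differences are log2 differences ± SE from limma over 35 arrays, and a call means an adjusted p under 0.05 (Benjamini-Hochberg, over the 17571 genes tested). Array medians ran from 6.41 to 6.84, and the 25th percentile of an array from 5.17 to 5.60. The library labelled XX germ cells TS24 replicate 3 had 5.07 for Pou5f1, the gene of the Oct4 reporter, 5.04 for the germ cell marker Ddx4 and 11.19 for the somatic gonad gene Wt1. It was left out, which leaves 2 arrays for XX germ cells at TS24, and calls of members that change with it are given both ways. On the other 17 germ cell arrays the mean of 5 germ cell markers was between 10.36 and 11.38, against 5.48 to 6.93 on the 18 supporting cell arrays. The mean of 8 somatic gonad markers was 6.46 to 7.14 on germ cell arrays and 9.04 to 9.68 on supporting cell arrays.

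Of the 10 members, 3 were higher in germ than in supporting cells at TS13 and in XX at TS34: the bHLH gene Sohlh2, the TFIID gene Taf4b and the mRNA-binding gene Ybx2. Germ and supporting cells were not tested against each other at TS24. In germ minus supporting cells at TS13, averaged over the sexes, these 3 were called higher and none lower, where 27.8% of all genes tested were called higher. The same 3 were called higher in XX at TS34 (17.2% of all genes), and Sohlh2 and Taf4b in XY at TS34 (16.8% of all genes). The other 7 members lay close to the supporting cells, with differences of -0.39 to 0.44 in these 3 comparisons and no call. An unadjusted p under 0.05 was reached by 1 of their 21 values, and the lowest adjusted p was 0.123. In such bulk samples, fewer cells of a type and less RNA per cell cannot be told apart.

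Sohlh2 separated the cell types fully. Its germ cell arrays ran from 7.89 through a median of 8.84 to 9.85, and its supporting cell arrays from 5.25 through 5.66 to 6.59, so all 17 germ cell arrays lay above the highest supporting cell array. The difference was 2.30 ± 0.14 at TS13 (adjusted p = 2.65e-19), 3.85 ± 0.20 in XX at TS34 (adjusted p = 1.38e-21) and 3.01 ± 0.20 in XY at TS34 (adjusted p = 1.60e-17).

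In XX germ cells Sohlh2 was 8.25, 8.71 and 8.24 at TS13, 8.87 and 9.11 at TS24, and 9.85, 9.45 and 9.31 at TS34. Every array of a later stage was above every array of the stage before it. In XY germ cells the arrays read 8.09, 8.11 and 7.89 at TS13, 8.87, 9.04 and 8.90 at TS24, and 8.23, 8.84 and 8.76 at TS34. The XY arrays were thus highest at TS24, with no array of TS34 reaching the lowest of TS24.

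Sohlh2 rose by 1.14 ± 0.20 in XX germ cells between TS13 and TS34 (adjusted p = 3.41e-05). In XY germ cells it rose by 0.91 ± 0.20 between TS13 and TS24 (adjusted p = 0.00663), and over TS13 to TS34 its difference was 0.58 ± 0.20 (adjusted p = 0.0697). The XY rise from TS13 to TS24 narrowly lost its call without XY TS13 replicate 3 (0.84, adjusted p = 0.0557) and without XY TS24 replicate 2 (0.86, adjusted p = 0.0544). Its size stayed close to 0.91 in both fits. The XX steps taken singly did not pass, at 0.59 ± 0.23 for TS24 minus TS13 (adjusted p = 0.224) and 0.55 ± 0.23 for TS34 minus TS24 (adjusted p = 0.131). With the left-out library the former was -0.48 and the latter 1.62 (adjusted p = 0.00878).

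At TS34 XY germ cells had less Sohlh2 than XX germ cells, by a difference of -0.93 ± 0.20 (adjusted p = 0.00102), with no overlap between the 3 arrays of each sex. At TS13 and TS24 the XY minus XX differences were -0.37 (adjusted p = 1.0) and -0.05 (adjusted p = 0.934). The change of the sex difference from TS13 to TS34 was -0.56 ± 0.29 and did not pass (adjusted p = 0.386), so the sex difference was not shown to depend on the stage. Ordered by mean, the germ cell groups were XX TS34 (9.54), XX TS24 (8.99), XY TS24 (8.94), XY TS34 (8.61), XX TS13 (8.40) and XY TS13 (8.03). No pair of neighbours in that order that was tested passed, although XX TS34 minus TS24 did after quantile normalization (0.71) and median centring (0.69), and XY TS34 and XX TS13, which were not tested, overlapped.

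Sohlh1, the partner of Sohlh2, did not follow it. Its germ cell arrays ran from 6.58 through 6.89 to 7.44 and its supporting cell arrays from 6.48 through 6.84 to 7.30, with 1 germ cell array above the highest supporting cell array. At TS13 germ minus supporting cells was -0.22 ± 0.14 (adjusted p = 0.224), and this became a call of lower, -0.36 and -0.34, after quantile normalization or median centring (adjusted p = 0.0107 and 0.0150). In XX germ cells at TS34 its arrays read 7.44, 6.69 and 6.66, and in XY 6.68, 7.25 and 6.92, ranges that overlap almost wholly.

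The bHLH gene Figla was the member nearest to a call among the other 7. Its XX germ cell arrays at TS34 read 6.72, 5.77 and 6.07, and its XY arrays 5.50, 5.53 and 5.71. The XX arrays were all above the XY ones, by a small margin for replicate 2. XY minus XX at TS34 was -0.61 ± 0.21 (adjusted p = 0.0547). The call was reached after quantile normalization (-0.69, adjusted p = 0.00757), median centring (-0.66, adjusted p = 0.0127) or with the replicate number as a block (-0.61, adjusted p = 0.0489). It was also reached without XX TS13 replicate 1, XY TS24 replicate 2 or XX TS34 replicate 2. Without XX TS34 replicate 1, its highest array, the difference was -0.34 (adjusted p = 0.308).

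Figla had no clear level beyond the supporting cells, however. Germ cell arrays ran from 5.33 through 5.77 to 6.72 and supporting cell arrays from 5.33 through 5.66 to 6.20, and 2 germ cell arrays exceeded all supporting cell arrays. In XX at TS34 germ minus supporting cells was 0.44 (adjusted p = 0.123), 0.64 without XX TS34 replicate 2 (adjusted p = 0.0297) and 0.17 without XX TS34 replicate 1 (adjusted p = 0.592). From TS24 to TS34 in XX germ cells it differed by 0.57 ± 0.24 (adjusted p = 0.128), which passed after quantile normalization (0.71, adjusted p = 0.0236) and median centring (0.71, adjusted p = 0.0247) and was 0.30 without XX TS34 replicate 1 (adjusted p = 0.383).

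Nobox and Lhx8, the homeobox genes, were near the levels of supporting cells throughout. Nobox ran from 4.93 through 5.36 to 5.83 in germ cells and from 4.99 through 5.13 to 5.49 in supporting cells. For Nobox, 5 of 17 germ cell arrays exceeded the highest supporting cell array. It exceeded the 25th percentile of the array on 8 of 35 arrays and the array's median on none. Lhx8 ran from 5.81 through 6.33 to 7.04 in germ cells and from 5.95 through 6.23 to 6.80 in supporting cells. For Lhx8, 2 germ cell arrays exceeded the highest supporting cell array. Its highest germ cell arrays were XY TS13 replicate 3 (7.04), XX TS24 replicate 2 (6.83) and XX TS13 replicate 1 (6.80), in different groups.

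The secreted ligands gave no call over the 35 arrays either. Gdf9 was 5.44, 5.97 and 6.44 at its lowest, median and highest germ cell array, against 5.66, 5.99 and 6.69 in supporting cells, and no germ cell array exceeded the highest of the supporting cells. In XX germ cells at TS34 it read 5.95, 5.66 and 5.44. Bmp15 ran from 4.78 through 5.15 to 5.73 in germ cells and from 4.88 through 5.06 to 5.47 in supporting cells, and exceeded the 25th percentile of the array on 4 of 35 arrays. It is thus among the lowest signals of the array, where differences are compressed. Without XY TS34 replicate 1, its lowest array, Bmp15 at TS34 was called higher in germ cells of XY than of XX (0.56 in place of 0.31, adjusted p = 0.0420) and higher than in XY supporting cells (0.52 in place of 0.26, adjusted p = 0.0334).

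Zp3, the sperm-binding protein of the egg coat, ran from 5.23 through 5.71 to 6.40 in germ cells and from 5.36 through 5.64 to 6.25 in supporting cells. Its highest germ cell array was XX TS13 replicate 1, and its XX arrays at TS34 read 6.03, 5.53 and 5.29. Over the 9 comparisons of stages and sexes in germ cells, the 63 differences of the 7 members Figla, Nobox, Lhx8, Sohlh1, Gdf9, Bmp15 and Zp3 lay between -0.61 and 0.57, with a median SE of 0.216. None was called and 3 had an unadjusted p under 0.05. A value that misses the threshold does not show that a level was constant.

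**Figure D1:**
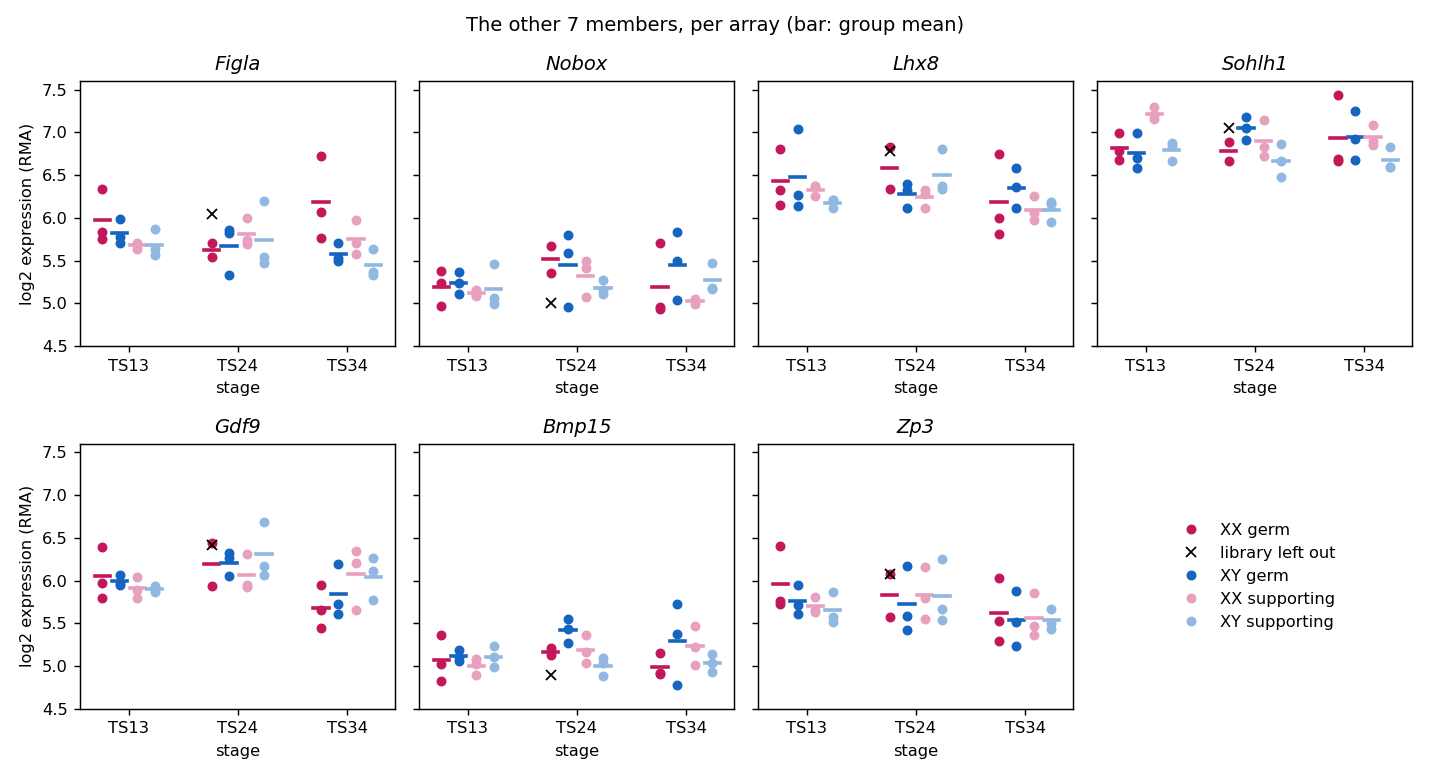
Log2 expression of Figla, Nobox, Lhx8, Sohlh1, Gdf9, Bmp15 and Zp3 (y axis) on each array of germ and supporting cells by sex and stage (x axis), with group means as bars and the left-out library as a cross. Germ and supporting cell arrays overlap for all 7 genes, and the Figla arrays of XX germ cells at TS34 (5.77 to 6.72) lie above those of XY (5.50 to 5.71).

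Taf4b was high in germ cells of every group. Its germ cell arrays ran from 8.55 through 9.06 to 9.93 and its supporting cell arrays from 6.28 through 6.63 to 7.07, without overlap. Germ minus supporting cells was 2.02 ± 0.15 at TS13 (adjusted p = 1.36e-16), 3.21 ± 0.21 in XX at TS34 (adjusted p = 5.17e-18) and 2.77 ± 0.21 in XY at TS34 (adjusted p = 1.43e-15).

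In XX germ cells Taf4b was 8.58, 8.66 and 8.63 at TS13, 9.28 and 9.80 at TS24, and 9.72, 9.52 and 9.93 at TS34. The TS13 arrays lay together, below all arrays of the later stages. In XY germ cells it was 9.44, 8.67 and 8.55 at TS13, 9.03, 8.80 and 8.70 at TS24, and 9.06, 9.45 and 9.43 at TS34. Replicate 1 of XY at TS13 stood apart from its group, level with the highest arrays of TS34.

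Taf4b rose in XX germ cells by 1.10 ± 0.21 between TS13 and TS34 (adjusted p = 1.11e-04). The step from TS13 to TS24 was 0.92 ± 0.24 (adjusted p = 0.0330), and the step from TS24 to TS34 was 0.18 ± 0.24 (adjusted p = 0.692). The call for the earlier step was lost without any array of XX TS13 (adjusted p = 0.0827, 0.0691 and 0.0873 without replicates 1, 2 and 3) and without XX TS24 replicate 2 (0.66, adjusted p = 0.479). That XX TS24 array also had the higher somatic values of its group, with Wt1 at 8.19 and the stromal gene Dcn at 7.99, against 7.18 and 7.19 on replicate 1. Their part in the result was not tested.

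In XY germ cells the Taf4b difference between TS13 and TS34 was 0.42 ± 0.21 (adjusted p = 0.297), 0.70 without XY TS13 replicate 1 (adjusted p = 0.0467) and 0.25 without XY TS13 replicate 3 (adjusted p = 0.849). XY minus XX was -0.70 ± 0.24 at TS24 (adjusted p = 0.118) and -0.41 ± 0.21 at TS34 (adjusted p = 0.264). The change of the sex difference from TS13 to TS34 was -0.68 ± 0.30 (adjusted p = 0.269). With the left-out library the sex difference at TS24 was 0.39 and the XX step from TS13 to TS24 was -0.17, and the step from TS24 to TS34 was 1.27 (adjusted p = 0.0434). The rise of Taf4b in XX was therefore not shown to differ from the change in XY. By mean the groups ran XX TS34 (9.72), XX TS24 (9.54), XY TS34 (9.31), XY TS13 (8.89), XY TS24 (8.85) and XX TS13 (8.62). Neighbours in that order overlapped except XY TS24 and XX TS13, which were not tested.

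Ybx2 was the member whose sexes parted. In XX germ cells it was 9.49, 9.07 and 8.96 at TS13, 9.68 and 8.81 at TS24, and 10.30, 9.59 and 9.88 at TS34. In XY germ cells it was 9.05, 9.05 and 9.67 at TS13, 8.93, 8.69 and 8.82 at TS24, and 8.26, 8.41 and 8.45 at TS34. The XX arrays at TS34 lay above those of TS13, whereas the XY arrays lay lower at each later stage, with no overlap between stages.

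Ybx2 rose in XX germ cells by 0.75 ± 0.21 between TS13 and TS34 (adjusted p = 0.00660) and fell in XY germ cells by 0.88 ± 0.21 (adjusted p = 0.00243). At TS34 XY minus XX was -1.55 ± 0.21 (adjusted p = 1.58e-07), after a difference of 0.08 at TS13. The change of the sex difference between the stages was itself called, at -1.63 ± 0.29 (adjusted p = 2.33e-04). It was called in every alternative tried, with values of -1.80 to -1.42.

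The rise in XX and the fall in XY were each less firm than their difference. The XX rise was 0.56 without XX TS34 replicate 1 (adjusted p = 0.0606) and 0.64 without XX TS13 replicate 3 (adjusted p = 0.0524), and the XY difference was -0.68 without XY TS13 replicate 3 (adjusted p = 0.0608). Single steps did not pass: 0.68 ± 0.23 for TS34 minus TS24 in XX (adjusted p = 0.0519), and -0.44 ± 0.21 for each step in XY (adjusted p = 0.435 and 0.354). Median centring and quantile normalization each brought the XX step past the threshold, at 0.82 and 0.86, as did the replicate block at 0.67 (adjusted p = 0.0483). It also passed in 6 of the fits without 1 germ cell array. It rested on the pair of TS24 arrays, at 1.11 without XX TS24 replicate 1 (adjusted p = 0.00899) and 0.25 without replicate 2 (adjusted p = 0.690). With the left-out library it was 0.95 (adjusted p = 0.00486).

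Ybx2 was not above the supporting cells on every germ cell array. Supporting cells ran from 7.72 through 7.98 to 8.47 and germ cells from 8.26 through 9.05 to 10.30, and 14 of 17 germ cell arrays exceeded all supporting cell arrays. The 3 that did not were those of XY at TS34. They lay above the XY supporting cell arrays of the same stage (7.85 to 7.97). The highest supporting cell array, at 8.47, was of XY at TS24. Germ minus supporting cells was 1.28 ± 0.15 at TS13 (adjusted p = 1.34e-10) and 1.98 ± 0.21 in XX at TS34 (adjusted p = 1.90e-11). In XY at TS34 it was 0.45 ± 0.21 and did not pass (adjusted p = 0.0963). By mean the germ cell groups ran XX TS34 (9.92), XY TS13 (9.26), XX TS24 (9.24), XX TS13 (9.18), XY TS24 (8.81) and XY TS34 (8.37), with overlap of neighbours down to XX TS13 and none below it.

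**Figure D2:**
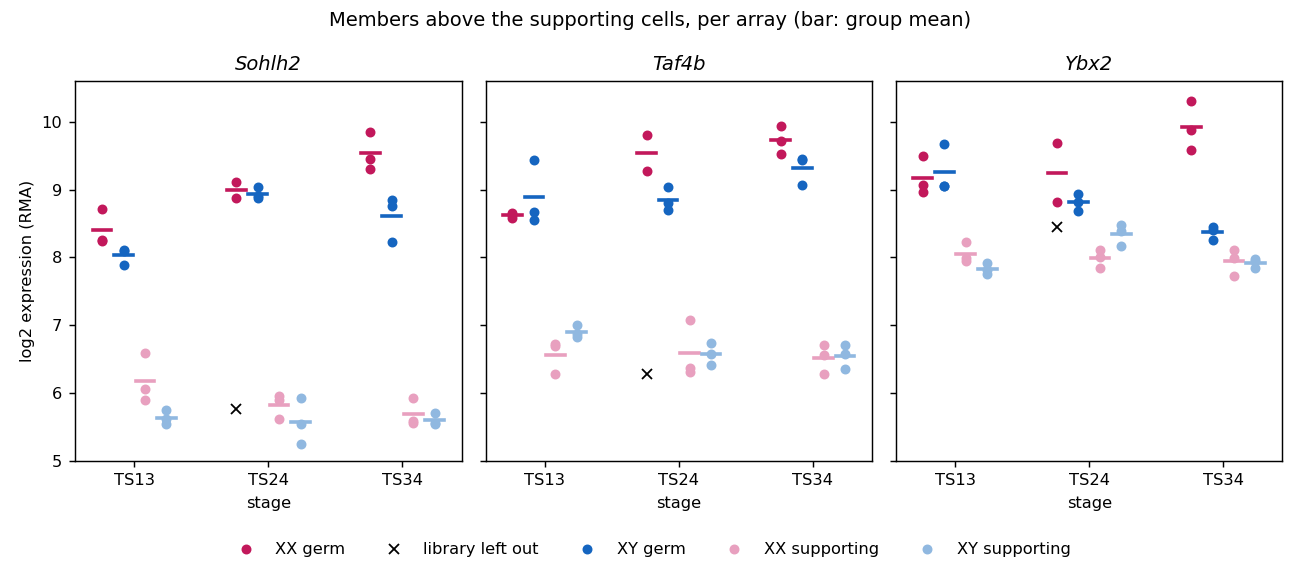
Log2 expression of Sohlh2, Taf4b and Ybx2 (y axis) on each array of germ and supporting cells by sex and stage (x axis), with group means as bars and the left-out library as a cross. Germ cell arrays of Sohlh2 and Taf4b lie above all supporting cell arrays. The Ybx2 arrays of XY germ cells at TS34 (8.26 to 8.45) lie within the range of all supporting cells. They lie above the XY supporting cell arrays of TS34 (7.85 to 7.97).

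Set against all genes, the members' counts were as follows. In XX germ cells from TS13 to TS34, 3 of 10 members were called higher and none lower, where the calls over all genes were 6.64% higher and 10.9% lower. In XX from TS13 to TS24, 1 member was called higher (0.979% of all genes), and from TS24 to TS34 none in either direction (8.88% of all genes). In XY germ cells 1 member was called higher from TS13 to TS24 (0.837% of all genes) and none in either direction from TS24 to TS34 (2.73%). From TS13 to TS34 in XY 1 was called lower, against 4.81% of all genes, and none higher, against 3.33%.

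Between the sexes no member was called at TS13 or TS24, where 0.0285% and 1.96% of all genes were called in either direction. At TS34, 2 members were called lower in XY than in XX (4.46% of all genes) and none higher (6.04%). For the change of the sex difference from TS13 to TS34, 1 member was called, downwards (1.87% of all genes). The median over all genes was -0.14 for XX TS34 minus TS13 and -0.15 for XX TS34 minus TS24, so the rises of Sohlh2, Taf4b and Ybx2 in XX from TS13 to TS34 ran against the shift of the arrays as a whole. The share of calls that were higher moved with the scaling. After quantile normalization it was 53.8% in place of 37.9% for XX TS34 minus TS13, 65.1% in place of 80.8% for XX TS24 minus TS13, and 50.5% in place of 21.0% for XX TS34 minus TS24. In XY it was 51.5% in place of 40.9% for TS34 minus TS13 and 55.6% in place of 36% for TS34 minus TS24. For germ minus supporting cells it was 49.4% in place of 69.1% at TS13 and 46.1% in place of 58.1% in XY at TS34. No scaling turned the direction of Sohlh2, Taf4b or Ybx2 in the spans given. When the left-out library was kept, its spread entered every gene's error. Then Sohlh2 and Taf4b were not called in XX from TS13 to TS34 (1.14, adjusted p = 0.0608, and 1.10, adjusted p = 0.0799), nor Sohlh2 between the sexes at TS34 (adjusted p = 0.206) or in XY from TS13 to TS24 (adjusted p = 0.564).

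**Figure D3:**
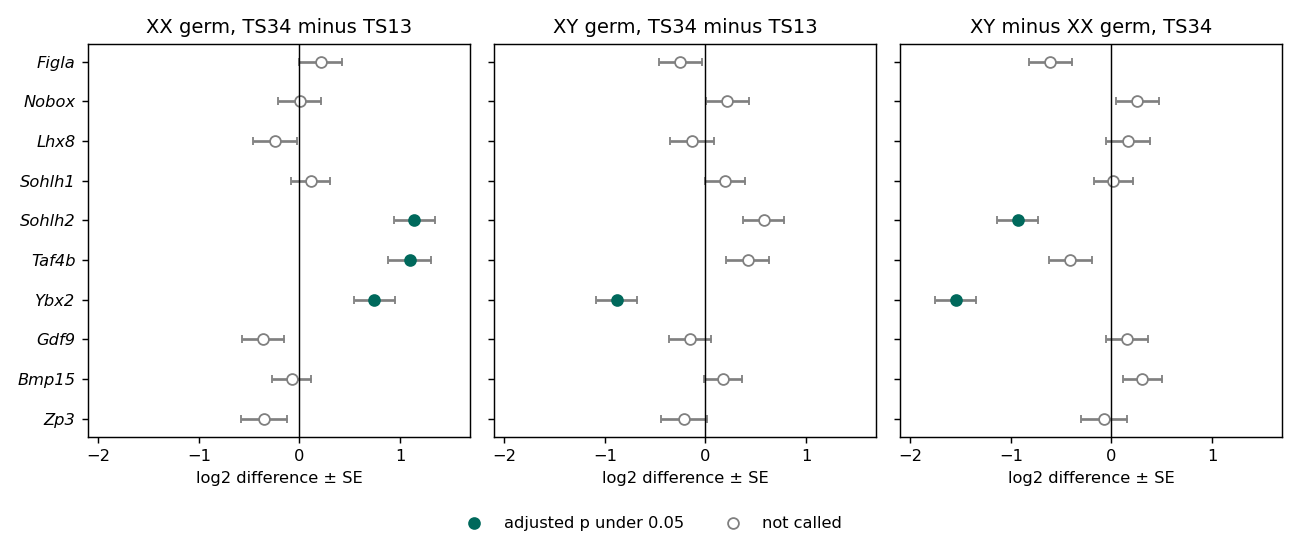
Log2 difference ± SE (x axis) of the 10 members (y axis) in XX germ cells between TS13 and TS34, in XY germ cells between TS13 and TS34, and between XY and XX at TS34. Filled points passed the threshold: Sohlh2, Taf4b and Ybx2 in XX, Ybx2 in XY, and Sohlh2 and Ybx2 between the sexes.

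Markers of germ cells and of other cell types moved over the same spans. From TS13 to TS34 in XX, the germ cell markers Ddx4 (1.19) and Dazl (1.09) rose while Pou5f1 (-1.21), Nanos3 (-1.88) and Dppa5a (-1.13) fell. With values as deposited, none of 8 somatic gonad markers and none of 4 stromal markers was called. Cdh5 of 4 endothelial markers (-0.72) and Hbb-y (-2.81) and Hba-x (-1.09) of 4 blood markers fell. After median centring and quantile normalization, however, Fst of the somatic gonad markers (0.46 and 0.48) and Col1a1 of the stromal markers (0.45 and 0.48) were called higher. Tek of the endothelial markers was then called lower (-0.50 and -0.49). The mean of the blood markers was 6.93 to 7.62 at TS13 and 5.89 to 6.41 at TS34 in XX germ cells. In XY from TS13 to TS34, Ddx4 (0.95) rose, while Pecam1 of the endothelial markers (-1.21) and Hbb-y (-2.50) fell, the last not after quantile normalization. The endothelial mean in XY germ cells was 6.90 to 7.25 at TS13 and 6.16 to 6.60 at TS34, and the blood mean was 6.97 to 7.58 and 5.98 to 6.78. None of the 8 somatic gonad markers was called in that span, and Cdh5 was called lower there after median centring (-0.69) and quantile normalization (-0.71). At TS34 XY minus XX, Nanos3 (1.84) and Pou5f1 (0.91) were higher and no somatic, stromal, endothelial or blood marker was called. In XX from TS24 to TS34, with 2 arrays at TS24, Nanos3 (-1.18), the somatic gonad marker Sox9 (-0.78) and the stromal marker Dcn (-1.31) fell. Pecam1 (-1.02) and Hbb-y (-2.65) fell there too. Dcn was called lower in XY than in XX at TS24, and Pecam1 fell in XY from TS24 to TS34. From TS13 to TS24 no marker was called in either sex. The part of these markers in the members' differences was not tested.

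A list of 9 meiotic genes gives the scale of change in the same arrays. All 9 rose in XX from TS13 to TS34, with a median of 3.04 against -0.14 over all genes, among them Stra8, the gatekeeper of meiotic entry (5.06), Meioc, which prolongs meiotic prophase (4.76), and Sycp1 of the synaptonemal complex (4.17). In XY 4 of 9 rose (Spo11, Sycp1, Sycp2 and Sycp3), and 7 of 9 were lower in XY than in XX at TS34. Sohlh2, Taf4b and Ybx2, at 0.75 to 1.14 in XX, changed by less than each of the 9 except Dazl, the lowest at 1.09.

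The genes most like each member over the 17 germ cell arrays are given as a description, since these arrays share stage and sex. For Sohlh2 they were Smc1b, a cohesin subunit of meiosis (Pearson r = 0.920), Sycp3, a protein of the meiotic chromosome axis (0.902), and Rnf103, a ubiquitin ligase (0.900). For Taf4b they were Ppp1r13b, which encodes the p53-binding protein ASPP1 (0.912), Parp6 (0.899) and Cpd, which encodes a carboxypeptidase (0.898). For Ybx2 they were Krcc1 (0.897), Rexo5 (0.878) and Lacc1 (0.871). Between members, Figla and Ybx2 ran most alike (r = 0.78, and 0.78 after median centring), and Sohlh2 and Taf4b reached 0.66. The r of 0.69 between Gdf9 and Zp3 fell to 0.49 after median centring, a step that removes the arrays' own level.

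Among the 9 genes of TFIID and its paralogs, which share the machinery of TAF4B, 3 rose and 1 fell in XX from TS13 to TS34. The list's median was near 0 (all genes -0.14). Taf7l, a germ cell paralog of Taf7, rose by 4.54 ± 0.30 (adjusted p = 9.15e-17), from a mean of 6.34 to 10.88. Taf9b (1.24 ± 0.33) and the largest subunit, Taf1 (0.66 ± 0.20), rose too, and Taf7 fell by 0.69 ± 0.22. Taf4, the paralog of Taf4b, differed by -0.52 ± 0.20 (adjusted p = 0.0634). After median centring Taf4 was called lower (-0.46, adjusted p = 0.038 by limma), but not after quantile normalization (adjusted p = 0.065).

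In XY, Taf7l (2.98) and Taf9b (1.76) rose, and at TS34 XY minus XX was -1.53 for Taf7l and 1.05 for Taf7, both called. Taf7l differed from Taf4b in the somatic cells. At TS13 Taf7l was lower in germ than in supporting cells, with a difference of -3.32 ± 0.21 (adjusted p = 5.21e-19), and its supporting cell means ranged from 10.02 in XX at TS13 to 5.63 in XY at TS34. These groups differ in sex, stage and mouse line, which cannot be told apart between them. The mouse line of the XY supporting cells changed between those stages, so stage and line cannot be told apart within XY either.

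**Figure D4:**
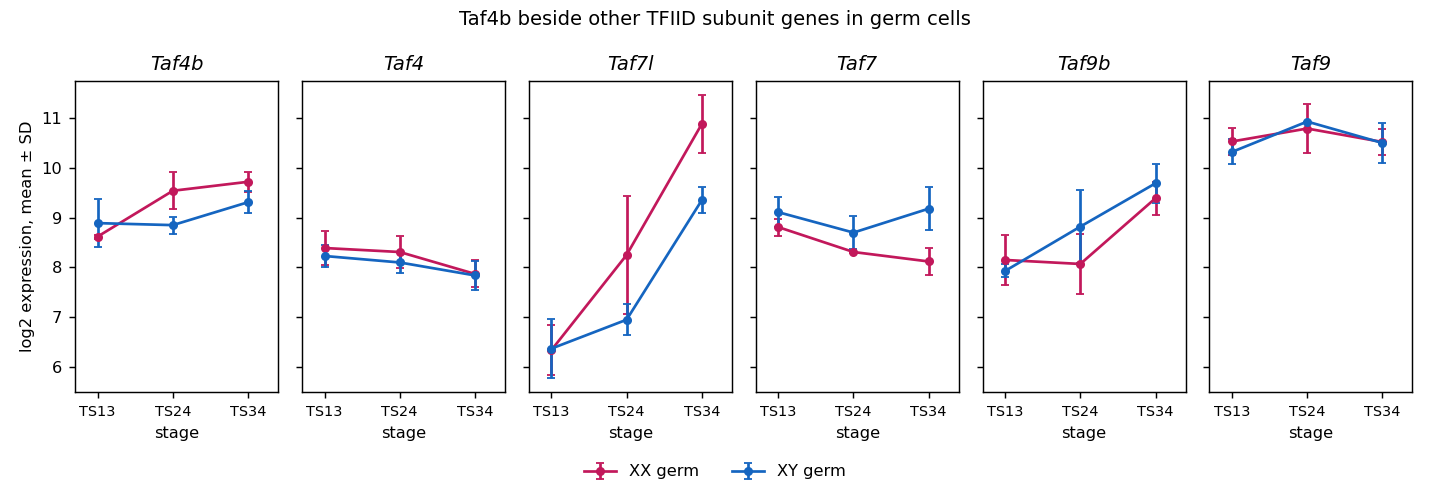
Log2 expression (y axis, mean ± SD over 3 arrays, 2 for XX at TS24) of Taf4b, Taf4, Taf7l, Taf7, Taf9b and Taf9 in XX and XY germ cells by stage (x axis). Taf7l runs from 6.34 to 10.88 in XX, a wider span than that of Taf4b, from 8.62 to 9.72.

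Neither of the Y-box genes Ybx1 and Ybx3, which encode relatives of YBX2, was called in XX or XY from TS13 to TS34. Neither was called between the sexes at TS34. Against supporting cells, Ybx3 was called higher in germ cells at TS13 and in XX at TS34, but not in XY at TS34. Ybx1 was called in none of these comparisons of the cell types. Ybx1 differed by -0.52 ± 0.20 in XX from TS13 to TS34 (adjusted p = 0.0578) and by -0.50 in XY. Ybx3 differed by -0.54 ± 0.21 and -0.26. After median centring both were called lower in XX (adjusted p of 0.043 and 0.048 by limma).

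None of the 3 zona and oocyte-secreted genes tested was called in the comparisons of stages and sexes in germ cells, and Oosp1 and Astl were below the filter. The egg coat gene Zp1 was higher in germ than in supporting cells in XY at TS34, at 0.53 (adjusted p = 0.0305), and was not called in the other 2 comparisons of the cell types. Zp1 differed by -0.03 and Zp2 by 0.25 in XX from TS13 to TS34, neither of them called. Of 12 genes for maternal stores and ooplasm, the histone chaperone Npm2 rose in XX (0.64) and Ooep, of the subcortical maternal complex, fell (-0.93). At TS34 3 of the 12, Khdc3 (0.91), Nlrp5 (0.92) and Ooep (0.92), were higher in XY than in XX germ cells, where 6.04% of all genes were called higher. The list's median was 0.30, against 0.06 over all genes. Tle6 (0.28), Padi6 (-0.12) and Zbed3 (-0.01), also of that complex, were not called there.

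The receptors and SMADs through which GDF9 and BMP15 signal were mixed. Of 9 tested, Smad5 (0.82) and Smad2 (0.62) rose in XX from TS13 to TS34, Smad3 (-0.72) fell, and none was called in XY. At TS34 the receptor Tgfbr1 was lower in XY, at -1.0 ± 0.22 (adjusted p = 0.00121). Of 8 regulators of oocyte growth, Dynll1 fell in XX (-0.64), and at TS34 the cell cycle inhibitor Cdkn1b was higher (1.41) and the receptor Kit lower (-0.90) in XY. In XY from TS13 to TS34 Cdkn1b rose by 1.09 and Kit fell by 1.26. Of the list genes and markers named for XX from TS13 to TS34, Dynll1 and Dppa5a lost their call after quantile normalization. With the left-out library kept, Dazl, Ddx4, Dppa5a, Pou5f1, Sycp3, Cdh5, Npm2, Smad2, Smad3 and Taf1 were not called in that span. Between the sexes at TS34, Cdkn1b, Kit, Pou5f1, Spo11, Sycp1 and Sycp3 were then not called. In XY from TS13 to TS34, neither were Cdkn1b, Kit, Sycp3 and the markers Ddx4, Pecam1 and Hbb-y.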

How the data were processed

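RNA of sorted cells was measured on 36 single-colour arrays. The deposited values are log2 expression per probe set, made by the authors with RMA per the submitters' processing notes. Which version of RMA was run, and how probes were grouped into sets, is not given in the sources used here. Values were used as deposited. Of 35557 probe sets, 21789 had 1 gene symbol in the platform annotation, 1621 several and 12147 none. Symbols were updated by Entrez identifier for 21698 of them (RefSeq, GRCm38.p6), and the probe set with the highest mean was kept for each of 19938 genes. A gene was tested where it exceeded the array's 25th percentile on at least 3 arrays.

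Group means were fitted with limma 3.58.1 in R 4.3.3 over 35 arrays and 12 groups without covariates (23 residual degrees of freedom), and checked on simulated data. The tests were two-sided. P-values were adjusted over all genes within each of 13 comparisons, not across comparisons. The number of arrays limits the precision.

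The members, the gene lists and the comparisons were chosen with earlier results of these data known. Genes named are the members, the 3 genes most like each of Sohlh2, Taf4b and Ybx2, and called or defining genes of the lists. Alternatives were other filters, normalizations and fits, the left-out library, and each germ cell array left out in turn; supporting cell arrays were not left out.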

Additional observations from a re-analysis of the deposited data

Results flagged for a closer look

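The sex difference of Ybx2 in germ cells differed between the stages by a test of that difference: XY minus XX at TS34 minus XY minus XX at TS13 was -1.63 ± 0.29 (adjusted p = 2.33e-04, limma). Ybx2 changed by 0.75 in XX and by -0.88 in XY between TS13 and TS34, each with 3 arrays per group, and at TS34 all 3 XY arrays were below all 3 XX arrays.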

How the results depend on the processing

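Counts of called members changed as follows. With all 36 arrays they were 0 in place of 1 for XX TS24 minus TS13, 3 in place of 0 for XX TS34 minus TS24, 1 in place of 3 for XX TS34 minus TS13, 0 in place of 1 for XY TS24 minus TS13 and 1 in place of 2 for the sexes at TS34. Quantile normalization and median centring each gave 3 in place of 0 for XX TS34 minus TS24 and 2 in place of 1 for XY TS34 minus TS13. Sohlh2 was then called in that XY span, at 0.62 and 0.61 (adjusted p = 0.0169 and 0.0236, limma). Germ cell arrays alone gave 0 for XX TS24 minus TS13. Leaving out 1 germ cell array gave 0 to 1 for XX TS24 minus TS13, XX TS34 minus TS24 and XY TS24 minus TS13, 0 to 2 for XY TS34 minus TS13, 2 to 3 for XX TS34 minus TS13 and for the sexes at TS34, and, for germ minus supporting cells at TS34, 3 to 4 in XX and 2 to 3 in XY. With all 36 arrays 3 differences reversed: Sohlh2 (-0.48) and Taf4b (-0.17) in XX TS24 minus TS13, and Taf4b between the sexes at TS24 (0.39). Over the arrays left out in turn, Taf4b in XX TS34 minus TS24 ran from -0.083 to 0.44 and Ybx2 between the sexes at TS24 from -0.86 to 0.004; the lone XX TS24 array is then assumed to vary like the other groups. Without XY TS34 replicate 1, Sohlh2 in XY TS34 minus TS13 was 0.77 (adjusted p = 0.0196). Whether the replicate numbers pair the samples is not known. Of 24 same-numbered pairs of germ cell arrays, 3 had deviations from their group means that correlated above 0.1 (range -0.36 to 0.19). Pairs with different numbers were not compared, so pairing is not excluded. With the number as a block, XX TS34 minus TS24 had 1 called member, Ybx2, in place of 0, and Figla between the sexes at TS34 passed. Among the recomputed values of a chosen set of member differences, not of all members, 862 kept their direction and side of the threshold. Another 29 passed it anew, 14 no longer passed and 5 reversed. Of the 862, 606 came from leaving out 1 germ cell array. A difference cannot move in such a fit where the array lies outside its comparison, so these totals do not measure how firm the results are. Levels near the array's 25th percentile limit what Nobox and Bmp15 can show. Figla and Zp3 exceeded that percentile on 33 of 35 arrays but the array's median on none, and Gdf9 exceeded the median on 1. Low levels may limit these genes too.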
